A study of Homo sapiens with 6 samples.

Results

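The immunoproteasome and the peptide-loading machinery of the class I pathway were followed through 10 genes: PSMB8, PSMB9, PSMB10, PSME1, PSME2, TAP1, TAP2, TAPBP, ERAP1 and ERAP2. They were found by symbol among the 57820 gene identifiers of the deposited count table, and all 10 had a row. Of these, 9 passed the low-count filter and were tested together with 16396 genes in all, and TAP2 was listed at 0 in each of the 6 libraries.

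The RNA came from Cal27, an established line from a human tongue squamous carcinoma. The first group was transduced with a lentivirus that carried cornulin (CRNN), the second with the lentiviral GFP vector as control, and both were harvested 48 h later after exposure to 8 µg/ml polybrene. The untreated group, wild-type Cal27, has no polybrene or harvest time in its labels, so transduction, polybrene and time cannot be told apart in comparisons with it. Each group had 2 biological replicates, all given as batch 1, and the labels do not say whether the transduced cells were selected or cloned.

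Most cells cut their proteins with the standard proteasome, a barrel whose catalytic subunits PSMB5, PSMB6 and PSMB7 cleave the chain and whose caps feed it. Interferons induce the replacement subunits PSMB8, PSMB9 and PSMB10, which favour peptides with ends that class I molecules bind, and the PA28 cap made of PSME1 and PSME2. The peptides are carried into the endoplasmic reticulum by the TAP1 and TAP2 transporter, trimmed there by ERAP1 and ERAP2, and handed to the class I molecule with the help of tapasin (TAPBP), and carcinoma cells often express this chain at a low level.

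The promoters of these genes share a short element, which is why the following stretches are shown. In the RefSeq promoter windows (GRCh38.p14, 250 bases before to 50 after a start), GAAANNGAA, the core of the interferon-stimulated response element, was searched on both strands. It stood in at least 1 window of 9 of the 10 members, TAP2 included, and in 9.86% of the 27305 genes that have a window. Each line gives the member, the position and strand, and the sequence 5′ to 3′ along the gene, with the match in capitals. Capitals that begin with TTC are matches on the opposite strand.
PSMB8, chr6:32844032-32844060 (-): atctgtggctTTCGCTTTCacttcctcct
PSMB10, chr16:67936853-67936881 (-): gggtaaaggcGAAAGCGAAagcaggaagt
PSME1, chr14:24136190-24136218 (+): ccctaccgctTTCGCTTTCccttcgcggt
PSME2, chr14:24146620-24146648 (-): cctggggagtGAAAGCGAAagcccgggcg
TAP1, chr6:32853816-32853844 (-): ggccgctTTCGATTTCGCTTTCccctaaa
TAP2, chr6:32838779-32838807 (-): ctggggaagcGAAAGCGAAagctgcccga
TAPBP, chr6:33314077-33314105 (-): tttggagGAAAGTGAAAGTGAAaggagga
ERAP1, chr5:96807924-96807952 (-): gggctccactTTCACTTTCggtcctgggg
ERAP2, chr5:96876460-96876488 (+): tcttagaacaGAAAGTGAAagcaaaagta
In TAP1 and TAPBP the capitals hold 2 overlapping matches. PSMB8 and PSME2, whose RNA varied alike over the libraries, and TAPBP and ERAP2, whose RNA varied otherwise, all carry the element. PSMB9, the member whose RNA was nearest to that of PSMB8, does not hold it in its window. Any part of the element in the RNA levels was not tested.

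PSMB9 was the member whose window held no GAAANNGAA. Its RefSeq start lies 488 bases from that of TAP1, on the other strand, and the windows of this divergent pair share 13 bases. The 250 bases before the TAP1 start are printed because the pair of overlapping elements lies between the starts of both genes. Here the capitals mark those elements and, after them, 1 kappa-B motif.
TAP1, chr6:32853705-32853954 (-): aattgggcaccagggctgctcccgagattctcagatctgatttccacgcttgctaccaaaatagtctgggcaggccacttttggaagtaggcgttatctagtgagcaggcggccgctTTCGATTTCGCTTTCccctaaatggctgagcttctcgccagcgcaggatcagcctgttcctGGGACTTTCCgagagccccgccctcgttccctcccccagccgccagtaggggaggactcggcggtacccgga
The gamma-activated site, TTCNNNGAA, stood in the windows of 2 members, PSMB8 and TAP1, and in 9.38% of all genes with a window. No such match overlapped a GAAANNGAA match. The kappa-B motif stood in the windows of 3 members, TAP1, TAPBP and ERAP1, and in 13.3% of all genes. Outside the members, neither window of PSMB5, the constitutive partner of PSMB8, held GAAANNGAA, and the windows of B2M held 2 matches, of LAP3 1 and of HLA-B 0. A match is a description of these letters and no evidence of binding in Cal27.

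Library totals ranged from 11817105 counts in GFP replicate 2 to 28041227 in untreated replicate 1, so 3 counts corresponded to 0.115 to 0.239 CPM, the unit of all levels here (read counts scaled by library size with TMM factors). CRNN itself was at 964 and 1028 CPM in the CRNN libraries and between 2.08 and 3.51 CPM in the other 4, as their labels say. The 7 squamous markers (keratins, TP63, EPCAM and CDH1) summed to between 3725 and 5790 CPM in each library. Within that sum untreated replicate 1 stood apart, with KRT17 at 1771 CPM (67.6 to 182 elsewhere), CDH1 at 281 CPM (73.3 to 116 elsewhere) and KRT14 at 64.6 CPM (123 to 275 elsewhere), and the part of this in the members' values was not tested. Of 10 immune cell markers 8 had at most 50 counts over all libraries, and their sum was 6.08 to 9.93 CPM. CD14 made up most of it, with 8.34 and 7.22 CPM in CRNN, 4.41 and 4.23 in the GFP libraries, and 5.27 and 5.52 in untreated cells, and its part in the members' values was not tested. Fibroblast markers summed to 4.04 to 9.50 CPM. Endothelial markers summed to 53.2 CPM in untreated replicate 1, where CDH5 alone had 49.9 CPM, and to 8.36 to 14.4 CPM elsewhere. In bulk RNA, fewer cells that express a gene and less RNA per cell cannot be told apart.

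Levels between genes were compared as CPM per kilobase of exon (union of all annotated exons), over all 6 libraries. PSME1 stood highest at 125, followed by PSME2 at 39.5, PSMB8 at 18.7 and PSMB9 at 12.7. PSMB10 at 11.0 and TAP1 at 10.8 were next. TAPBP was at 6.09 and ERAP1 at 3.92, and ERAP2 was the lowest of the 9 at 1.48. Within each of the 6 libraries this order held between neighbours, except between PSMB9 and PSMB10 and between PSMB10 and TAP1. PSMB10 was above PSMB9 in untreated replicate 1 (16.9 and 14.9). TAP1 was above PSMB10 in some libraries, among them CRNN replicate 2 (12.6 and 12.1). In each member the highest library was between 1.95 times (PSME2) and 2.8 times (TAP1) the lowest.

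**Figure D1:**
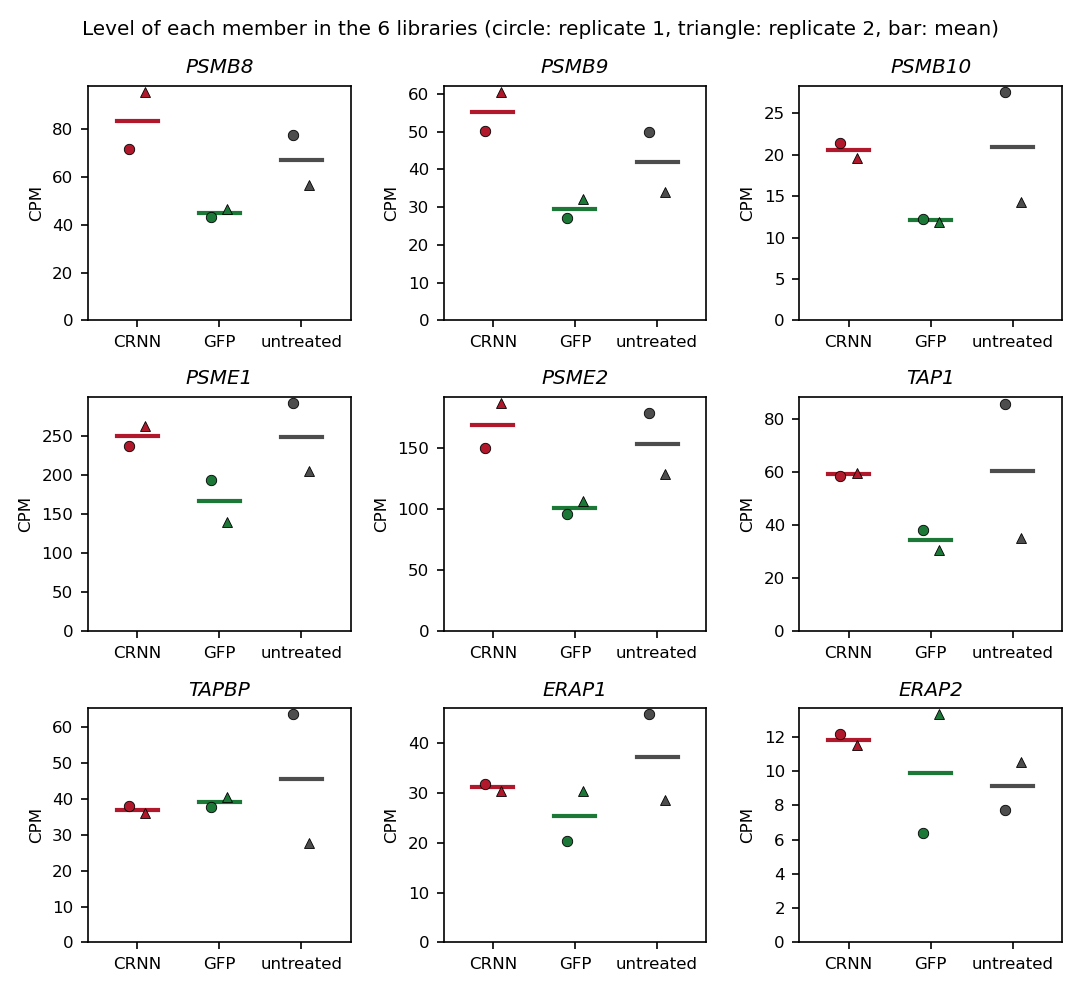
Level of each of the 9 tested members in CPM (linear axis from 0) in the CRNN, GFP and untreated libraries, with replicate 1 as a circle, replicate 2 as a triangle and the mean as a bar. In 7 panels both CRNN points lie above both GFP points, and the 2 untreated points are far apart in most panels.

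Members of the immunoproteasome were higher in the CRNN libraries than in the GFP libraries, and no member passed the test over all genes. PSMB8, which replaces PSMB5 and cuts after bulky hydrophobic residues (ENSG00000204264.4; GENCODE 44, GRCh38 chromosome 6, 32840717 to 32844679, minus strand), had 71.6 and 95.3 CPM in the CRNN libraries. It had 43.3 and 46.6 CPM in GFP and 77.3 and 56.5 CPM in untreated cells. Both CRNN libraries stood above both GFP libraries, while the untreated pair overlapped the CRNN pair and stood above GFP. The log2 fold change of PSMB8 in CRNN against GFP was 0.89 (SE 0.28, unadjusted p = 0.0122, adjusted p = 0.999 by edgeR's quasi-likelihood test with Benjamini-Hochberg adjustment).

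PSMB9 replaces PSMB6 (ENSG00000240065.3; chromosome 6, 32844136 to 32859851, plus strand) and had 50.1 and 60.4 CPM in the CRNN libraries. In GFP it had 27.1 and 32.1 CPM, and in untreated cells 49.8 and 33.9 CPM. The CRNN pair was thus above every other library, though by a small step over untreated replicate 1. Its log2 fold change in CRNN against GFP was 0.90 (SE 0.29, unadjusted p = 0.0129 by edgeR). PSMB10, which replaces PSMB7 (ENSG00000205220.7; chromosome 16, 67934506 to 67936864, minus strand), had 21.4 and 19.6 CPM in CRNN. It was at 12.3 and 11.9 CPM in GFP, and at 27.5 and 14.3 CPM in untreated cells. The untreated replicates lay on either side of the CRNN pair, and the log2 fold change in CRNN against GFP was 0.76 (SE 0.34, unadjusted p = 0.0519).

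The exons of PSMB8 and PSMB9 share 139 bases on opposite strands, and 640 exon bases of PSMB10 (39.4%) are shared with ENSG00000261884 on the same strand, which had 140 counts in all. The strand setting of the counting is not given in the sources used here, so reads from such stretches could have been credited to either gene or to none.

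Both chains of the PA28 cap, which opens the barrel for peptide release, followed the same order of groups. PSME1 (ENSG00000092010.10; chromosome 14, 24136163 to 24138967, plus strand) had 237 and 263 CPM in CRNN, 193 and 140 CPM in GFP, and 292 and 206 CPM in untreated cells. GFP held its 2 lowest values. PSME2, the partner chain (ENSG00000100911.9; chromosome 14, 24143362 to 24147570, minus strand), had 150 and 187 CPM in CRNN, 95.9 and 107 CPM in GFP, and 179 and 129 CPM in untreated cells. The GFP libraries were again the lowest, and the CRNN and untreated pairs overlapped. The log2 fold changes in CRNN against GFP were 0.58 (SE 0.30) for PSME1 and 0.74 (SE 0.28, unadjusted p = 0.0294 by edgeR) for PSME2.

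The transporter was represented by TAP1 alone. TAP1, the chain that pairs with TAP2 to pump peptides into the endoplasmic reticulum (ENSG00000168394.9; chromosome 6, 32845209 to 32853816, minus strand), had 58.5 and 59.8 CPM in CRNN. It had 38.3 and 30.6 CPM in GFP and 85.4 and 35.1 CPM in untreated cells. The CRNN values were close together and above GFP, while untreated replicate 1 was the highest of all libraries and replicate 2 lay among the GFP values. Its log2 fold change in CRNN against GFP was 0.78 with an SE of 0.40. TAP2 (ENSG00000204267.9; chromosome 6, 32821833 to 32838739, minus strand) was listed at 0 in each library. Genes of the same region that every cell uses, DDX39B, CSNK2B and GTF2H4, were also listed at 0 and were looked up after that value was seen, so the zero gives no level for TAP2. ENSG00000250264, which shares 2023 exon bases with TAP2 on the same strand, was listed at 0 too.

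Tapasin and the trimming enzymes had smaller log2 fold changes in CRNN against GFP than the other members. TAPBP, which holds the empty class I molecule at the transporter (ENSG00000231925.7; chromosome 6, 33299694 to 33314284, minus strand), had 37.9 and 35.9 CPM in CRNN, 37.7 and 40.4 CPM in GFP, and 63.5 and 27.7 CPM in untreated cells. The transduced libraries lay within a narrow range and the untreated replicates stood on either side of it, with a log2 fold change in CRNN against GFP of -0.08 (SE 0.37). ERAP1, which trims long peptides (ENSG00000164307.8; chromosome 5, 96760810 to 96808100, minus strand), had 31.7 and 30.4 CPM in CRNN, 20.3 and 30.3 CPM in GFP, and 45.7 and 28.6 CPM in untreated cells. GFP replicate 2 reached almost the CRNN values, and the log2 fold change was 0.30 (SE 0.32). ERAP2, its relative with a preference for basic first residues (ENSG00000164308.12; chromosome 5, 96875986 to 96919703, plus strand), had 12.1 and 11.5 CPM in CRNN, 6.39 and 13.3 CPM in GFP, and 7.75 and 10.5 CPM in untreated cells. The GFP replicates of ERAP2 held both its lowest and its highest value, and its log2 fold change of 0.27 (SE 0.38) became -0.16 without GFP replicate 1 and 0.91 without GFP replicate 2. ERAP1 also shares 299 exon bases with CAST on the opposite strand, and CAST had 30030 counts in all.

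Over the 9 tested members, CRNN against GFP gave 0 calls at an adjusted p under 0.05 by edgeR (0.0183% of all tested genes were called), and also 0 by DESeq2 and limma-voom. At an unadjusted p under 0.05, 3 members were higher in CRNN (1.49% of all genes were), namely PSMB8, PSMB9 and PSME2, and none was lower. This number fell without CRNN replicate 2 and rose without either untreated library. The share of all genes was not computed for those fits, so the shifts are no result about the members. Both CRNN libraries were above both GFP libraries in 7 members (19.4% of all genes), and TAPBP and ERAP2 were the exceptions. The members' median log2 fold change was 0.74 and 8 of 9 were positive, against a median of -0.0017 and 49.9% positive over all tested genes.

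**Figure D2:**
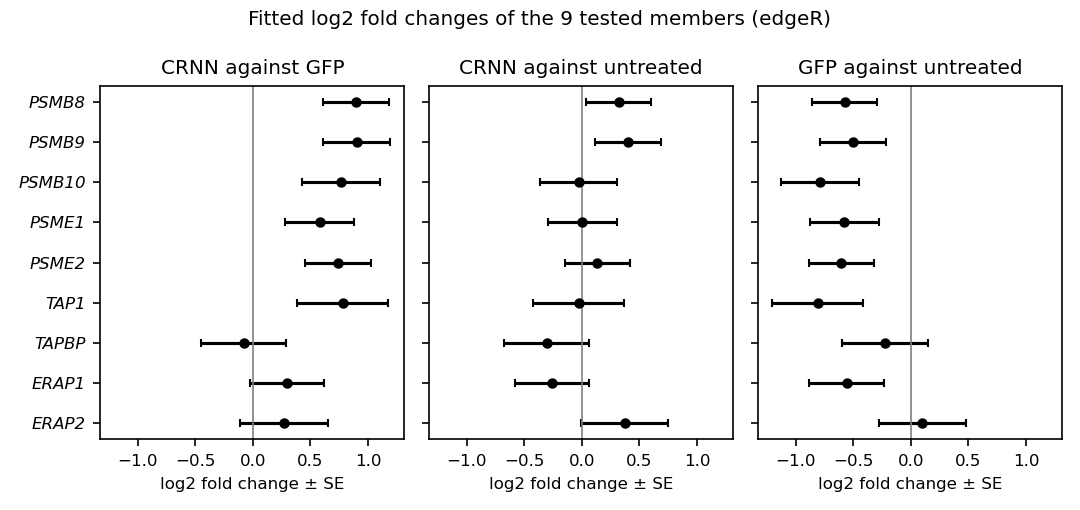
Log2 fold change of the 9 tested members in the 3 comparisons (points) with 1 SE on each side (bars), from the edgeR fit of all 6 libraries. In CRNN against GFP 8 points lie right of 0, in CRNN against untreated they lie around 0, and in GFP against untreated 8 lie left of 0.

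Against untreated cells the members of the CRNN group lay around 0. In this comparison 0 members were called (0.0061% of all genes) and 0 had an unadjusted p under 0.05 with a higher level in CRNN (1.52% of all genes), by edgeR. DESeq2 and limma-voom also called 0. The CRNN libraries were above both untreated libraries in 2 members, PSMB9 and ERAP2 (18.7% of all genes), with log2 fold changes of 0.40 (SE 0.29) and 0.37 (SE 0.38). The other 7 lay between -0.30 for TAPBP (SE 0.37) and 0.32 for PSMB8 (SE 0.28), and the median of the 9 was 0.00 with 5 positive, against -0.0091 over all genes. Both PA28 chains were close to no difference, PSME1 at 0.00 (SE 0.30) and PSME2 at 0.13 (SE 0.28), as was PSMB10 at -0.03 (SE 0.33). ERAP1 was at -0.26 (SE 0.32). The smallest adjusted p among them was 0.989 (edgeR). TAP1, for example, was at -0.03 with an SE of 0.39, so a moderate difference in either direction was not detectable.

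The GFP libraries held the low end of most members also against untreated cells. This comparison called 0 members by edgeR (0.0% of all genes), 0 by DESeq2 and 0 by limma-voom. At an unadjusted p under 0.05, 1 member was lower in GFP (2.9% of all genes), PSMB10 at a log2 fold change of -0.79 (SE 0.34, unadjusted p = 0.0457, adjusted p = 0.711 by edgeR). Both GFP libraries were below both untreated libraries in 5 members (15.5% of all genes): PSMB8, PSMB9, PSMB10, PSME1 and PSME2. Besides PSMB10 their log2 fold changes were -0.50 for PSMB9 (SE 0.29), -0.57 for PSMB8 (SE 0.28), -0.58 for PSME1 (SE 0.30) and -0.60 for PSME2 (SE 0.28). ERAP1 at -0.56 (SE 0.32) and TAPBP at -0.22 (SE 0.37) had libraries that overlapped. TAP1 was at -0.81 (SE 0.40), with untreated replicate 2 between the GFP values, and ERAP2 was the member with a positive value, 0.10 (SE 0.38). The median of the members was -0.57, against -0.013 over all genes. The 3 comparisons share their groups, so the low GFP values enter both comparisons with GFP.

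The members' values thus differed with the control used, and within the untreated control with the library. Untreated replicate 1 was above replicate 2 in 8 of 9 members, with a median ratio of 1.47 and a range of 0.736 for ERAP2 to 2.43 for TAP1. The same ratio had a median of 0.978 in CRNN and 0.928 in GFP. Untreated replicate 1 was the highest library of 5 members and CRNN replicate 2 of 3, while GFP replicate 1 was the lowest of 5 and GFP replicate 2 of 3. Without untreated replicate 1, the median log2 fold change in CRNN against untreated was 0.42. Without untreated replicate 2 it was -0.22. For GFP against untreated the median was -0.22 without untreated replicate 1 and -0.82 without untreated replicate 2. In the latter case 2 members were called, TAP1 at -1.32 (adjusted p = 0.0335) and PSMB10 at -1.20 (adjusted p = 0.0380), among 966 genes called by edgeR in a fit that left 1 untreated library.

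Set against their constitutive partners, the replacement subunits had the lower value per kilobase of exon in every library. The length is the union of all annotated exons, 3480 bases for PSMB8 and 1549 for PSMB5, and the ratios depend on it. It is 3338 for PSMB9 and 1447 for PSMB6, and 1626 for PSMB10 and 1788 for PSMB7. In CPM alone PSMB8 was nearest to PSMB5 in CRNN replicate 2, at 95.3 and 96.4, and was 43.3 against 93.2 in GFP replicate 1. The ratio of PSMB8 to PSMB5, both per kilobase of exon, was 0.337 and 0.440 in CRNN, 0.207 and 0.363 in the GFP libraries, and 0.381 and 0.298 in untreated cells. These groups overlapped, and PSMB5 itself was lowest in GFP replicate 2, at 57.2 CPM against 84.4 to 96.4 CPM elsewhere. The ratio of PSMB9 to PSMB6 was 0.175 and 0.177 in CRNN, 0.0959 and 0.139 in the GFP libraries, and 0.204 and 0.112 in untreated cells. The ratio of PSMB10 to PSMB7 was 0.114 and 0.0897 in CRNN, 0.0660 and 0.0725 in the GFP libraries, and 0.156 and 0.0741 in untreated cells. For these 2 pairs the CRNN values were above the GFP values and lay between the untreated replicates. The ratios are descriptions of RNA, with 2 libraries in each group and no test.

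**Figure D3:**
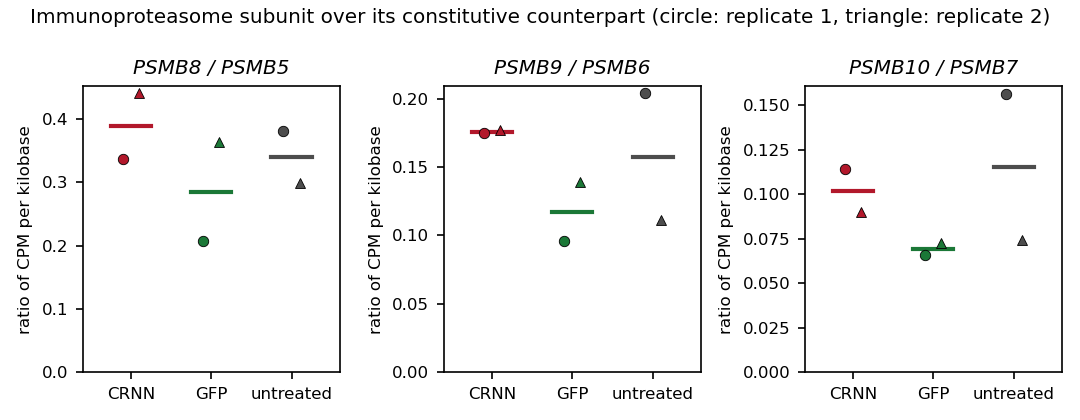
Ratio of each replacement subunit to its constitutive counterpart in CPM per kilobase (linear axis from 0) in each library, with replicate 1 as a circle, replicate 2 as a triangle and the mean as a bar. All ratios are below 0.45, the CRNN and GFP points are apart for PSMB9 and PSMB10, and the untreated points span the CRNN points for both.

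The rest of the proteasome had smaller median log2 fold changes between CRNN and GFP, and none of its genes was called. The 3 constitutive catalytic subunits had log2 fold changes of 0.34 for PSMB5 (SE 0.29), 0.29 for PSMB6 (SE 0.27) and 0.22 for PSMB7 (SE 0.26). Of the other 20S core subunits 10 were tested, all with a positive value and a median of 0.31, among them PSMA5 at 0.45 (SE 0.26), PSMA1 at 0.47 (SE 0.28) and PSMA4 at 0.41 (SE 0.28). Of the 17 subunits of the 19S cap 16 were positive, with a median of 0.19, among them PSMD7 at 0.50 (SE 0.27) and PSMD11 at 0.26 (SE 0.25). None of these 30 genes had an unadjusted p under 0.05 by edgeR. The CRNN libraries stood above both GFP libraries in 3 of the 3 constitutive catalytic subunits and 8 of the 10 other 20S core subunits. They did so in 3 of the 17 subunits of the 19S cap, against 19.4% of all genes. Such separation was therefore not particular to the members. The other activators, the inhibitor and the assembly factors had a median of 0.14 over 8 genes. POMP, the chaperone that matures the 20S core, was at 0.56 (SE 0.25), with 77.0 and 88.3 CPM in CRNN against 59.3 and 52.8 in GFP, and PSMG2, another assembly chaperone, was at 0.33 (SE 0.25). PSME4, the activator PA200, lay the other way at -0.80 (SE 0.31, unadjusted p = 0.0319), with 47.2 and 39.6 CPM in CRNN against 61.2 and 90.2 in GFP.

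Further along the pathway, the class I chains lay near the members and the chaperones did not. Of the class I chains 6 were tested and 6 were positive in CRNN against GFP, with a median of 0.76, 2 at an unadjusted p under 0.05 and 0 called by edgeR. In 5 of these chains both CRNN libraries were above both GFP libraries (19.4% of all genes). B2M, the invariant chain, had 645 and 928 CPM in CRNN, 347 and 458 in the GFP libraries, and 833 and 507 in untreated cells. Its CRNN libraries were above GFP and overlapped the untreated pair, at a log2 fold change of 0.97 (SE 0.35) over GFP. HLA-F was at 1.10 (SE 0.44) and HLA-B at 1.23 (SE 0.57). Class I heavy chains are related in sequence, so reads may be shared or lost between them. HLA-B had 42.1 and 44.7 CPM in CRNN, 23.1 and 13.7 in the GFP libraries, and 63.9 and 15 in untreated cells. The 7 loading and folding chaperones had a median of 0.15, with PDIA3, the disulfide isomerase of the loading complex, at 0.46 (SE 0.27) and PDIA6 at 0.30 (SE 0.27). HSPA5, the general chaperone BiP, was at -0.72 (SE 0.36), with GFP replicate 2 at 347 CPM and the other libraries at 154 to 239.

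Among 9 other peptidases the median was -0.01 and 1 gene had an unadjusted p under 0.05. That was LAP3, an interferon-inducible leucine aminopeptidase of the cytosol, with 48.7 and 61.5 CPM in CRNN, 14.3 and 24.9 in the GFP libraries, and 59.9 and 26.2 in untreated cells. Its log2 fold change over GFP was 1.49 (SE 0.43, unadjusted p = 0.00744, adjusted p = 0.999 by edgeR), and 1 untreated replicate lay near the CRNN values and the other near GFP. NRDC at -0.34 (SE 0.34) and THOP1, which destroys cytosolic peptides, at -0.23 (SE 0.32) did not share this direction.

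Of 10 regulators of the pathway 8 were positive in CRNN against GFP, with a median of 0.62, 3 at an unadjusted p under 0.05 and 0 called by edgeR. Both CRNN libraries were above both GFP libraries in 7 of them (19.4% of all genes). They were above both untreated libraries in 8 (18.7% of all genes). STAT2, which carries the type I interferon signal, had 222 and 216 CPM in CRNN, 110 and 122 in the GFP libraries, and 124 and 139 in untreated cells. Both its CRNN libraries were above all 4 control libraries, as for PSMB9 among the members, at 0.92 (SE 0.25) over GFP and 0.73 (SE 0.25) over untreated cells. IRF9, its partner, was at 1.51 (SE 0.60) over GFP from levels of 0.798 to 4.58 CPM. IRF1, an activator of immunoproteasome and TAP1 genes, had 135 and 154 CPM in CRNN, 82.4 and 109 in the GFP libraries, and 55.7 and 120 in untreated cells. Its CRNN libraries were also above all 4 control libraries, and its lowest value was in untreated replicate 1. Any part of IRF1 in the members' values was not tested. NLRC5, the transactivator of class I genes, was at 0.20 (SE 0.29) over GFP, with 26.3 to 38.7 CPM in all libraries.

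A reference list of 16 interferon-stimulated genes was all positive in CRNN against GFP, with a median of 2.28 and 15 at an unadjusted p under 0.05. Of these IFI6 and IFI27 rose, by 4.76 (SE 0.49) and 5.18 (SE 0.54), each with an adjusted p of 0.0307 by edgeR, and OAS1 at 2.84 (SE 0.51, adjusted p = 0.597) did not pass. Without either GFP library, or once trends with GC content and length were removed, neither passed, while their log2 fold changes stayed between 4.60 and 4.97 for IFI6 and between 5.01 and 5.43 for IFI27. OAS1, in turn, passed without the low-count filter (2.89, adjusted p = 3.89e-05), by DESeq2 (2.84, adjusted p = 4.90e-05), with the 4 compared libraries alone (2.84, adjusted p = 0.0208 by edgeR) and without either untreated library (2.87 and 2.86, adjusted p = 0.00937 and 0.00797 by edgeR). The list was chosen with its earlier result on these libraries known and is no independent evidence of direction or size. The log2 fold changes of the members were at most 0.90 (PSMB9, SE 0.29), and the smallest value of that list was 1.13 (SE 0.72). The 13 mitochondrially encoded messenger RNAs, a sign of RNA quality, lay the other way, with 0 of 13 positive, a median of -1.05 and 9 at an unadjusted p under 0.05. Their sum was 10461 and 6194 CPM in CRNN, 15097 and 11933 in the GFP libraries, and 10117 and 12346 in untreated cells, and its part in the members' values was not tested.

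Against the untreated pair the same lists gave other medians. The class I chains had a median log2 fold change of 0.03 in CRNN against untreated and -0.60 in GFP against untreated. The other 20S core subunits had 0.02 and -0.37, the constitutive catalytic subunits 0.14 and -0.10, and the 19S subunits 0.05 and -0.15. Both GFP libraries were below both untreated libraries in 7 of the 10 other 20S core subunits (15.5% of all genes). This held for 0 of the 3 constitutive catalytic subunits and 4 of the 17 19S subunits. For the interferon-stimulated reference genes the medians were 0.57 and -1.65, with 5 at an unadjusted p under 0.05 upward in CRNN and 13 downward in GFP. The regulators had 0.73 in CRNN against untreated and 0.07 in GFP against untreated. No gene of these lists was called in either comparison by edgeR.

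**Figure D4:**
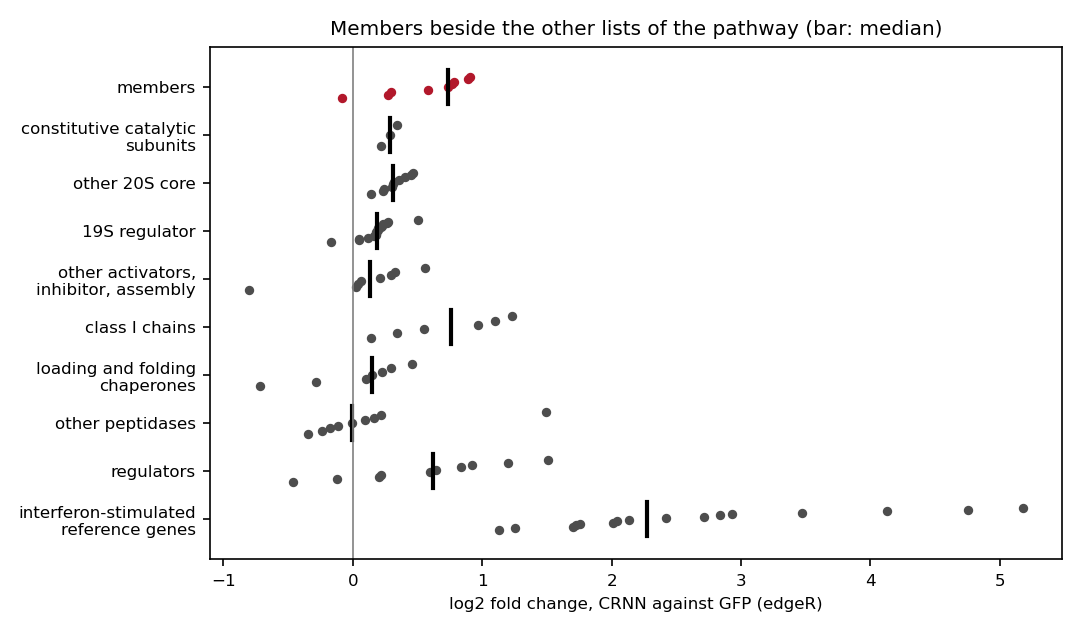
Log2 fold change in CRNN against GFP of each tested gene (points, edgeR) for the members and for 9 other lists of the pathway, with the median of each list as a bar. The members (median 0.74) lie near the class I chains (0.76), above the rest of the proteasome and below the interferon-stimulated reference genes (2.28). That reference list was chosen with its earlier result known.

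Among themselves, the members differed in how alike they were over the libraries. Likeness was measured as the root mean square difference of log2 CPM centred per gene over the 6 libraries, among 11531 tested genes whose log2 CPM averaged 1 or more. PSMB9 was closest to PSMB8, at 0.077, followed by LYSMD2 and RPL23AP65, both at 0.094. From PSMB8, in turn, PSMB9 held rank 2 and PSME2 rank 3. TAP1, the member with the largest SD over libraries (0.57 log2), was nearest to ENSG00000260035 at 0.064, HDAC9 at 0.10 and PSMB10 at 0.14. PSMB10 was nearest to EEF1A1P6 at 0.089, ZNFX1 at 0.098 and PARP3 at 0.11. From PSMB8, PSMB10 held rank 337, TAP1 rank 1093, ERAP1 rank 1606, TAPBP rank 5695 and ERAP2 rank 6006. TAPBP and ERAP2 were not near each other either, with ERAP2 at rank 9337 from TAPBP. Since all genes come from the same 6 libraries, these distances describe the libraries and share their depth.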

How the data were processed

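Total RNA libraries (TruSeq Stranded) of 6 Cal27 samples were sequenced in pairs, per the labels' protocols. The authors deposited raw read counts per gene for versioned Ensembl identifiers. Per the submitters' processing notes, the tools were STAR 2.6, HTSeq 0.6.1, edgeR, bcl2fastq and FastQC 0.11.7, with hg19, GRCh37 and GRCh38 as builds, and no roles given. Annotation and strand setting are not given in the sources used here. Of 57820 identifiers, 51996 were named by GENCODE 44 (GRCh38), which gives the gene positions and exon lengths (union of all annotated exons).

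From the counts, edgeR 4.0.16 (R 4.3.3) fitted all 6 libraries by quasi-likelihood with TMM factors after filterByExpr (minimum count 10, minimum total 15), which kept 16396 genes and 99.9% of counts. P-values are two-sided and adjusted over all tested genes (Benjamini-Hochberg), and a gene was called at an adjusted p under 0.05. The SE was computed as the absolute log2 fold change over the root of the F statistic. The groups share 1 estimate of the spread (square root of the common dispersion 0.289, prior degrees of freedom 5.83). The fit was checked on simulated data, in which every planted change was larger than those of the members. The check therefore does not cover changes of their size.

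Named are all members, CRNN, up to 3 genes per pathway list with the smallest unadjusted p in CRNN against GFP, NLRC5, IRF1, B2M, IFI6, IFI27, overlapping genes, and the 3 nearest genes of the 3 members with the largest SD. The values of 1 further gene that this rule names are not reported here. The members and lists were chosen with earlier results of these data known. PSMB3 had no matched identifier. Alternatives used DESeq2 1.42.0, limma 3.58.1 (voom), other scaling and filters, fewer libraries, a replicate block, and removal of each library's trend with GC content and length (natural splines, 4 degrees of freedom). Protein sequences were not analysed here.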

Additional observations from a re-analysis of the deposited data

How the results depend on the processing

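No member was called in CRNN against GFP or CRNN against untreated under any alternative run, and the lowest member adjusted p in CRNN against GFP was 0.481. In that comparison 143 of 144 values of single members kept direction and side of the threshold. In CRNN against untreated 125 did and 19 turned, and in GFP against untreated 138 did, 4 turned and 2 gained a call, with the cause not tested.

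Members at an unadjusted p under 0.05 in CRNN against GFP numbered 5 without a filter, with the 4 compared libraries alone, with the replicate block or after GC and length correction, and 0 to 5 with 1 library left out. In CRNN against untreated they numbered 0 to 1 with 1 library left out. In GFP against untreated they numbered 0 with library totals, the 1 CPM filter, limma-voom or 4 libraries, 3 without a filter, 4 after GC and length correction and 2 with the replicate block added, and 0 to 8 with 1 library left out, where 0 to 2 were called. The share of all genes at this threshold was not computed under these alternatives, so these counts are no result about the members. Differences between replicates 1 and 2 correlated between groups at r = 0.26 for CRNN with GFP, -0.071 for CRNN with untreated and 0.19 for GFP with untreated (11729 genes). With only replicates 1 and 2 in each group, these values can neither show nor exclude that equal numbers pair the libraries. The replicate block called no member. Members whose libraries did not overlap in CRNN against untreated numbered 1 with RLE factors and 2 to 9 with 1 library left out (9 without untreated replicate 1, 4 without CRNN replicate 1), and in GFP against untreated 5 to 8. These overlap counts were added after the data were seen. Their share over all genes was not computed, and a group left with 1 library is separated more easily. They are therefore no result about the members. The median in CRNN against untreated ran from -0.22 to 0.42 with 1 library left out.

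Turned values in CRNN against untreated were, for PSMB10, 0.015 (library totals), 0.048 (limma-voom) and 0.025 (replicate block), and for TAP1 0.024, 0.11 and 0.086. For PSME1 they were -0.0077 (no filter), -0.068 (GC and length) and -0.051 (both with the replicate block). ERAP2 in GFP against untreated was -0.0073 by limma-voom. With 1 library left out, CRNN against untreated ran from -0.42 to 0.53 for PSMB10, -0.22 to 0.28 for PSME1, -0.077 to 0.39 for PSME2, -0.53 to 0.76 for TAP1, -0.78 to 0.42 for TAPBP and -0.55 to 0.12 for ERAP1. GFP against untreated ran from -0.71 to 0.48 for TAPBP and -0.54 to 0.54 for ERAP2, and CRNN against GFP from -0.16 to 0.91 for ERAP2, -0.75 to 0.27 for NRDC and -0.56 to 0.24 for THOP1.

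Over all genes, CRNN against GFP called 3 genes, against 34 without a filter, 22 by DESeq2, 13 with 4 libraries, 1 after GC and length correction and 0 to 15 with 1 library left out. CRNN against untreated called 1, against 152, 7 (DESeq2) and 1 to 957 (without untreated replicate 2), and GFP against untreated 0, against 195, 29 and 0 to 966. CRNN over GFP was not called without GFP replicate 1 (8.61, adjusted p = 0.0754) or 2 (8.37, adjusted p = 0.115). With 2 libraries a group, a difference far larger than those of the members can miss the threshold, as OAS1 did at 2.84 (SE 0.51, adjusted p = 0.597 by edgeR).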
